A study of Mus musculus with 24 samples.

Results

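The 10 genes described here carry iron into cells, store it, sense it and let it out: Tfrc, Tfr2, Hfe, Trf, Slc11a2, Steap3, Fth1, Ftl1, Slc40a1 and Ireb2. They were taken by gene name from the scanner files, where 19 of 56605 probes bear these names, out of 37074 names in all. RNA of male Erfe-/- mice was taken from bone marrow and liver at 0, 24 and 48 h after phlebotomy by retro-orbital puncture. There were 4 samples of each tissue at each time and 1 Agilent array for each of the 24 samples. The mice at 0 h, labelled control, lacked Erfe as well, so every comparison is between Erfe-/- animals and no wild-type sample was analysed here. The labels do not say whether liver and marrow samples of the same number come from the same mouse, and the main comparisons between the tissues treat them as separate samples. Age and strain are not given in the sources used here. Erfe encodes erythroferrone, the hormone by which erythroblasts lower hepcidin production in the liver after blood loss.

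Most cells take up iron as transferrin bound to transferrin receptor 1, the product of Tfrc. The complex is taken into endosomes, where iron is released, reduced by Steap3 and moved to the cytosol by the transporter encoded by Slc11a2. Erythroblasts of the marrow have the greatest need for this route, because they make haemoglobin, whereas hepatocytes make plasma transferrin and sense its iron load through Tfr2 and Hfe. Inside cells ferritin, built from Fth1 and Ftl1 chains, holds spare iron, ferroportin (Slc40a1) is the exporter, and the iron regulatory protein encoded by Ireb2 binds stem-loops called iron-responsive elements in the mRNAs of Tfrc, ferritin, Slc40a1 and 1 form of Slc11a2.

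In marrow, the transcript of transferrin receptor 1 rose after phlebotomy, and no other of the 10 genes passed the test at either time. At 48 h both Tfrc probes were about 2-fold higher than at 0 h, with changes of 1.02 (SE 0.13) and 1.0 (SE 0.18) on the log2 scale, n = 4 against 4. Tfr2 and Steap3 had fitted increases in marrow that did not pass the threshold. In liver none of the 19 probes passed it. The fitted Tfrc change at 24 h on A_52_P228236 was 0.86 (SE 0.35) in liver and 0.80 (SE 0.13) in marrow. The direct test of the difference between the tissues' Tfrc changes passed at neither time on either probe. Before phlebotomy the tissues differed in 15 of the 19 probes, and the 2 alternative ends of the Slc11a2 transcript lay on opposite sides: one was higher in marrow and the other in liver.

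Throughout, a level is the log2 of a probe's signal minus the 75th percentile of its array, so 0 is a signal equal to that percentile. The percentile itself lay between 361.2 and 473.1 intensity units on liver arrays and between 715.0 and 954.7 on marrow arrays, and 28079 to 35771 probes were well above background on an array. A change is the difference between mean levels at 2 times, tested with limma on every probe kept in the tissue, and a probe passed where the p-value after Benjamini-Hochberg adjustment over all those probes was under 0.05. All 19 probes were well above background on 12 of 12 arrays of each tissue. Levels of different probes are not set against each other, since probes differ in brightness. The 2 Erfe probes, listed under the older name Fam132b, were above background on 0 of 12 livers, and in marrow on 0 of 12 and 1 of 12 arrays. The highest level of the latter probe was -2.61 over the marrow arrays and -4.67 over the liver arrays. That 1 array was marrow 24 h replicate 2, and the source of its Erfe signal was not tested. The same array also carried liver transcripts. The intensities of 10 hepatocyte markers there, not scaled to the 75th percentile, had a median of 29.1% of the liver mean (15.3% to 85.2%). On the other 11 marrow arrays that median lay between 0.00312% and 0.064%. The 75th percentile of the array with liver transcripts was 900.6, above every liver array, so shares taken from levels would be smaller on it. Trf and Tfr2, the 2 genes whose levels stand out on it, are therefore given with and without it. Over the 15 probes of the other 8 genes no marrow change at 24 h moved by more than 0.091 without it, and the 1 call among them was kept. Apart from that, both tissues carried their own markers. On every marrow array 7 of 7 erythroid genes found on the array, 10 of 10 neutrophil genes and 10 of 10 B-cell genes were above background. On every liver array 10 of 10 hepatocyte genes were. Detection alone did not set the tissues apart. At 0 h livers had 8 to 10 of 10 B-cell genes above background, and marrows had 5 to 10 of 10 hepatocyte genes. Summed levels at 0 h did set them apart. Hepatocyte markers stood at 7080 to 8490 times the 75th percentile in liver and 2.11 to 5.56 in marrow. B-cell markers stood at 4.24 to 4.92 in liver and 72.5 to 116 in marrow.

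Tfrc was read by 2 probes on mm9 chromosome 16, A_65_P06446 at 32620470-32620529 and A_52_P228236 at 32632255-32632314, both on the plus strand. Their positions do not overlap, so they sample different stretches of the gene. Over its 60 bases the first has 1 reading frame without a stop codon and the second has 0. Whether either lies in coding sequence was not analysed. The promoter window of RefSeq (GRCm38.p6, chr16:32608646-32608945, plus strand, 250 bases before and 50 after an annotated start) is shown because Tfrc was the gene that rose. Its capitals mark ACGTG, the core letters of sites bound by hypoxia-inducible factors.
Tfrc probe A_65_P06446: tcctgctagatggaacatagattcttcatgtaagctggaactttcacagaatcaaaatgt
Tfrc promoter window: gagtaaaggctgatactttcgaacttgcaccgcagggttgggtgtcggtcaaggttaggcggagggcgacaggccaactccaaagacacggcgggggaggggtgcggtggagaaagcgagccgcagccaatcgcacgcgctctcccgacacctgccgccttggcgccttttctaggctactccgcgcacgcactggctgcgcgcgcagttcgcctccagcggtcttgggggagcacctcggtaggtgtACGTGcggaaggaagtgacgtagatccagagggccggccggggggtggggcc
The letters ACGTG, searched on both strands, begin 2 bases before that start. They occur in 19.6% of 32851 promoter windows of this length, and in at least 1 window of 2 of the 7 genes that had one (Tfrc and Tfr2). GATAA, the core of sites for GATA factors, occurs in at least 1 window of 3 of those 7 genes (25.4% of all windows), and TTCNNNGAA, the form bound by STAT5, in 0 of 7 (8.3% of all windows). The 7 genes had 14 windows between them, so these counts of genes cannot be set directly against the shares of windows. Such matches describe letters in these windows and were not tested as binding sites.

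In marrow, Tfrc probe A_52_P228236 had levels of 3.11, 3.23, 3.22 and 3.42 in the 4 mice at 0 h. They were 4.24, 4.10, 3.76 and 4.08 at 24 h and 4.30, 4.52, 4.01 and 4.24 at 48 h. Every later mouse lay above every mouse at 0 h, and the 24 h and 48 h groups overlapped. The change was 0.80 (SE 0.13) at 24 h, with an adjusted p of 0.0155 in limma, and 1.02 (SE 0.13), 2.03-fold, at 48 h, with an adjusted p of 0.00375. The exact two-sided permutation p was 0.0286 at each time, the smallest that 4 against 4 arrays can give.

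The second Tfrc probe, A_65_P06446, had levels of 1.37, 1.23, 1.29 and 1.35 at 0 h in marrow. At 24 h they were 2.34, 2.18, 1.70 and 2.09, and at 48 h 2.54, 2.75, 1.92 and 2.05. The groups were again apart from 0 h at both times, with replicate 3 the lowest of its group at 24 and at 48 h on both probes. Its change was 0.77 (SE 0.18) at 24 h, which missed the threshold (limma adjusted p 0.0919), and 1.0 (SE 0.18) at 48 h, which passed it (limma adjusted p 0.0269). On each of the 3 slides alone, A_52_P228236 was higher by 1.07, 0.89 and 0.50 at 24 h and by 1.12, 1.05 and 0.82 at 48 h, with 1 or 2 arrays a group. Between 24 and 48 h neither Tfrc probe passed the test.

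**Figure D1:**
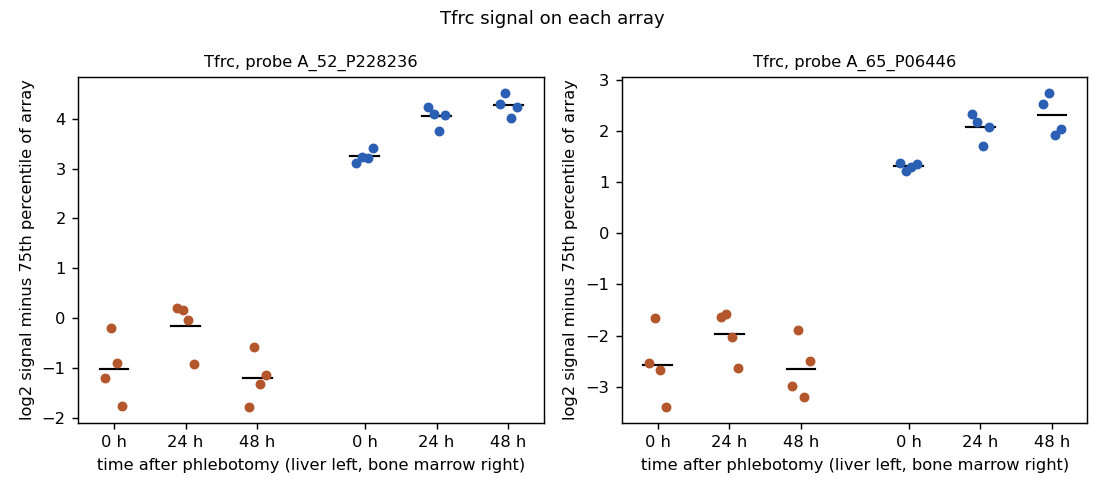
Log2 level of the 2 Tfrc probes on each array (points, 4 per group) with group means (bars), against time after phlebotomy in liver (left in each panel) and bone marrow (right). All 8 later marrow arrays lie above the 4 at 0 h on both probes, while the liver groups overlap.

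How firm these calls are differs between times. The 48 h call of A_52_P228236 held in 20 of 20 alternative analyses, with adjusted p from 0.00194 to 0.0204. The 24 h call was lost without a filter on dim probes (limma adjusted p 0.0624) and without marrow 0 h replicate 1, 2 or 3 or marrow 24 h replicate 1 (0.0501 to 0.0625), while the change stayed between 0.74 and 0.80 there. The 48 h call of A_65_P06446 was lost in 8 of 19 alternatives, including the slide as a block (limma adjusted p 0.0551).

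Against these counts stands the background. In marrow 0.829% of 32225 probes passed the threshold at 24 h in either direction, 0.462% upwards, and 1.21% at 48 h, 1.06% upwards. Of the 19 iron probes, 1 passed at 24 h and 2 at 48 h, all upwards and all Tfrc. Groups that did not overlap, with the later one higher, were found for 3 of 19 iron probes at 24 h and 4 of 19 at 48 h, against 4.12% and 8.39% of all probes. Both times are set against the same 4 mice at 0 h. The counts over all probes, 267 at 24 h and 389 at 48 h, shifted with single arrays: they were 160 and 547 without marrow 24 h replicate 2, 95 at 24 h without marrow 0 h replicate 2 and 129 at 48 h without marrow 48 h replicate 2. Without marrow 24 h replicate 2, Tfrc A_52_P228236 was higher by 0.78 at 24 h (limma adjusted p 0.0467). The median change of the 19 probes was 0.07 at 24 h and 0.17 at 48 h, against -0.02 and 0.01 over all probes. Between 48 and 24 h, 0 of 19 passed (limma; 2 at an unadjusted p under 0.05), with 0.0031% of all probes called.

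**Figure D2:**
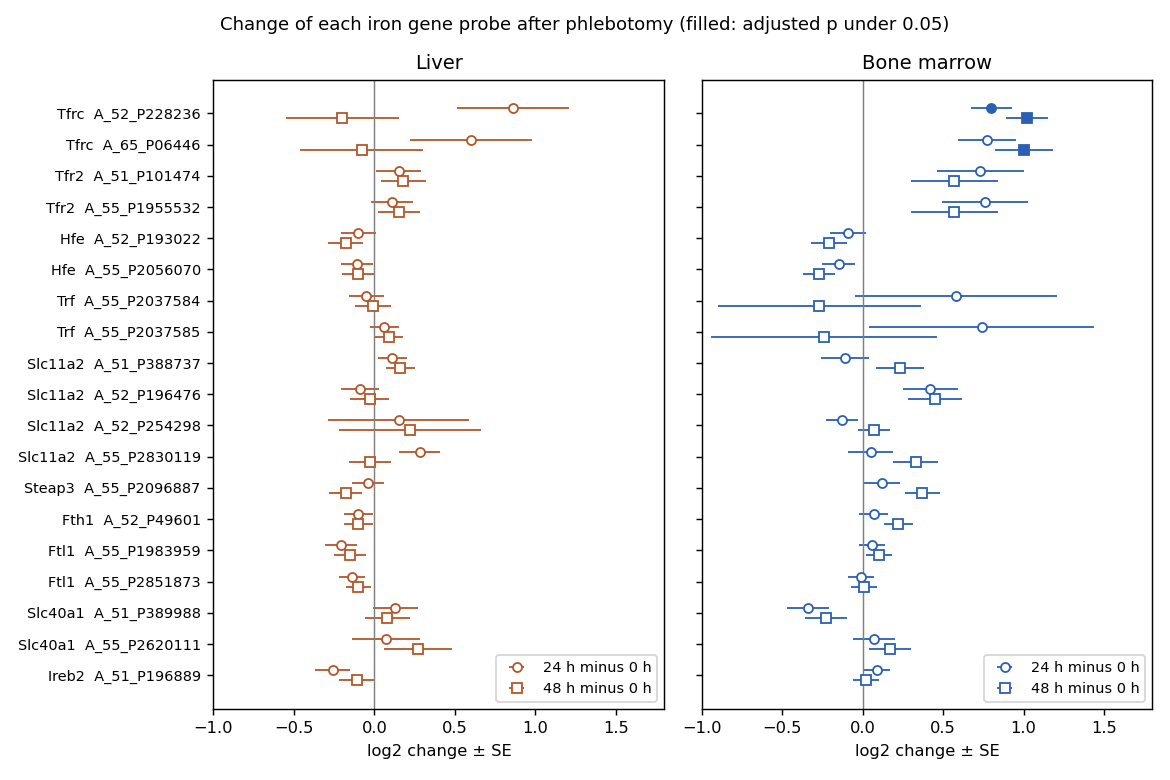
Fitted log2 change with its SE of each of the 19 iron gene probes at 24 h (circles) and 48 h (squares) against 0 h, in liver and in bone marrow; filled symbols have an adjusted p under 0.05. The 3 filled symbols are Tfrc in marrow, and the wide bars of Trf in marrow come with the array that carried liver transcripts.

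Erythroblasts are the marrow cells richest in transferrin receptor, so their markers are given beside Tfrc. At 24 h, the 10 probes of 7 erythroid genes (Klf1, Gata1, Epor, Ermap, Rhag, Slc4a1 and Alas2) had a median change of 0.03, with 5 fitted higher, 5 lower and 0 called (limma; 3 at an unadjusted p under 0.05). Without marrow 24 h replicate 2 the 24 h median was 0.08, with 7 fitted higher and 3 lower. At 48 h all 10 were fitted higher, 2 were called, and the median change was 0.51. Summed over the list, the erythroid level was 243 to 345 times the 75th percentile at 0 h, 230 to 318 at 24 h and 309 to 417 at 48 h. The part of erythroid cell number in the Tfrc result was not tested, and in whole marrow more cells of a type and more RNA per cell cannot be told apart.

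The 5 named genes whose marrow profile over the 12 arrays was most like that of A_52_P228236 were Apol8 (Pearson r 0.986), Rmdn3 (0.982), Prdx3 (0.980), Hcn3 (0.978) and Aars (0.977). The 12 points include the 3 time groups, which a shared change alone lines up. Apol8 had fitted changes of 0.79 at 24 h and 0.87 at 48 h. Aars, which encodes alanyl-tRNA synthetase, had 0.56 and 0.72, and Prdx3, a mitochondrial peroxiredoxin, had 0.43 and 0.52.

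In liver, Tfrc levels on A_52_P228236 were -1.20, -0.21, -0.90 and -1.77 at 0 h. They were 0.19, 0.15, -0.05 and -0.93 at 24 h and -1.79, -0.59, -1.33 and -1.15 at 48 h. The mice of a group spread more widely than in marrow, and the groups overlapped. The fitted change was 0.86 (SE 0.35) at 24 h (limma adjusted p 0.447) and -0.20 at 48 h (limma adjusted p 0.982). From 24 to 48 h it was -1.06 (limma adjusted p 0.544), and here every 48 h mouse except replicate 2 lay below every 24 h mouse. A_65_P06446 gave 0.60 and -0.08 against 0 h. At 24 h the 8 neutrophil marker probes measured in liver had a median change of 0.85, 7 of 8 fitted higher and 0 called. The 12 B-cell probes had a median of 0.24, with 10 fitted higher, 2 lower and 0 called. The 14 macrophage probes had a median of 0.1 and the 16 hepatocyte probes -0.05. The 6 erythroid probes measured there had a median of -0.14, with 2 fitted higher, 4 lower and 0 called. At an unadjusted limma p under 0.05 were 7 B-cell probes, 3 erythroid probes and 0 of the neutrophil, macrophage and hepatocyte probes. The part of these cells in the liver Tfrc values was not tested. The liver genes most like Tfrc over 12 arrays were Icmt (r 0.910), Rad51c (0.897), Ddit3 (0.891), Hn1l (0.889) and Klhl25 (0.885).

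Whether Tfrc changed more in marrow than in liver was tested directly. The difference between the tissues' changes was -0.06 (SE 0.39) at 24 h and 1.22 (SE 0.39) at 48 h on A_52_P228236, and 0.17 (SE 0.44) and 1.08 (SE 0.44) on A_65_P06446. Neither time passed on either probe, with limma adjusted p from 0.185 to 0.974. Over all 19 probes, 0 passed at 24 h and 0 at 48 h (limma; 4 and 5 at an unadjusted p under 0.05), against 0.447% and 0.583% of 26597 probes measured in both tissues.

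Tfr2, the second transferrin receptor, senses iron-loaded transferrin on hepatocytes and is also made by erythroid precursors, where it associates with the erythropoietin receptor. Its 2 probes lie next to each other on mm9 chromosome 5, A_51_P101474 at 138028592-138028651 and A_55_P1955532 at 138028646-138028705. In marrow A_55_P1955532 had levels of 1.67, 1.91, 1.97 and 2.23 at 0 h. They were 2.41, 3.72, 2.25 and 2.46 at 24 h and 2.51, 2.68, 2.32 and 2.57 at 48 h. The later mice all lay above those at 0 h, by little in places, and the 24 h value that stands far above the rest belongs to the array with liver transcripts. The changes were 0.76 (SE 0.27) at 24 h and 0.57 (SE 0.27) at 48 h, neither past the threshold (limma adjusted p 0.288 and 0.338). A_51_P101474 gave 0.73 and 0.57 and also did not pass.

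Without marrow 24 h replicate 2, the Tfr2 change at 24 h was 0.43 on A_55_P1955532 and 0.41 on A_51_P101474 (limma adjusted p 0.232 and 0.329). The 48 h change of 0.57 did not move, but the spread became smaller. The limma adjusted p at 48 h was then 0.0489 on A_55_P1955532, just past the threshold, and 0.0756 on A_51_P101474. On the 3 slides alone the 48 h change of A_55_P1955532 was 0.72, 0.53 and 0.34. In liver, Tfr2 passed at neither time, with fitted changes from 0.11 to 0.18 over both probes.

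Hfe encodes a protein related to class I histocompatibility molecules that binds Tfrc and takes part in the control of hepcidin; mutations in it cause haemochromatosis. Probe A_55_P2056070 (mm9 chromosome 13, 23795710-23795769, minus strand) had marrow levels of 0.58, 0.34, 0.42 and 0.51 at 0 h, 0.35, 0.50, 0.24 and 0.16 at 24 h and 0.04, 0.16, 0.36 and 0.19 at 48 h. One mouse at 48 h lay within the range at 0 h and the other 3 below it. The fitted change at 48 h was -0.27 (SE 0.10; limma adjusted p 0.215). The other probe, A_52_P193022, gave -0.21 (limma adjusted p 0.362). In liver the 2 probes gave -0.10 and -0.11 at 24 h and -0.18 and -0.10 at 48 h, none past the threshold.

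Trf encodes transferrin, the plasma carrier made chiefly by hepatocytes. It was read by A_55_P2037585 (mm9 chromosome 9, 103112826-103112885, minus strand) and A_55_P2037584 (103111207-103111266). The sequence of the first is printed because it is the member that most plainly reports the liver RNA on 1 marrow array.
Trf probe A_55_P2037585: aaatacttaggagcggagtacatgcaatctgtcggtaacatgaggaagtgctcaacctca
Its liver levels ran from 9.68 to 9.93 at 0 h, 9.80 to 10.03 at 24 h and 9.79 to 10.13 at 48 h, and the changes there did not pass (0.06 and 0.09; limma adjusted p 0.833 and 0.953). In marrow the levels were 3.42, 3.59, 3.50 and 3.67 at 0 h, 3.34, 7.18, 3.26 and 3.35 at 24 h and 3.44, 3.29, 3.13 and 3.39 at 48 h. The value of 7.18 is replicate 2, and the other 3 mice at 24 h all lay below every mouse at 0 h.

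The same array set the fitted Trf change in marrow at 24 h, 0.74 (SE 0.70) on A_55_P2037585 and 0.58 (SE 0.63) on A_55_P2037584. Without it the signs turned, to -0.23 and -0.28, with limma adjusted p of 0.406 and 0.397. At 48 h, where that array is not among those compared, the changes were -0.24 and -0.27, and leaving it out of the shared estimate of spread took the limma adjusted p from 0.905 and 0.874 to 0.203 and 0.228. None of these passed.

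**Figure D3:**
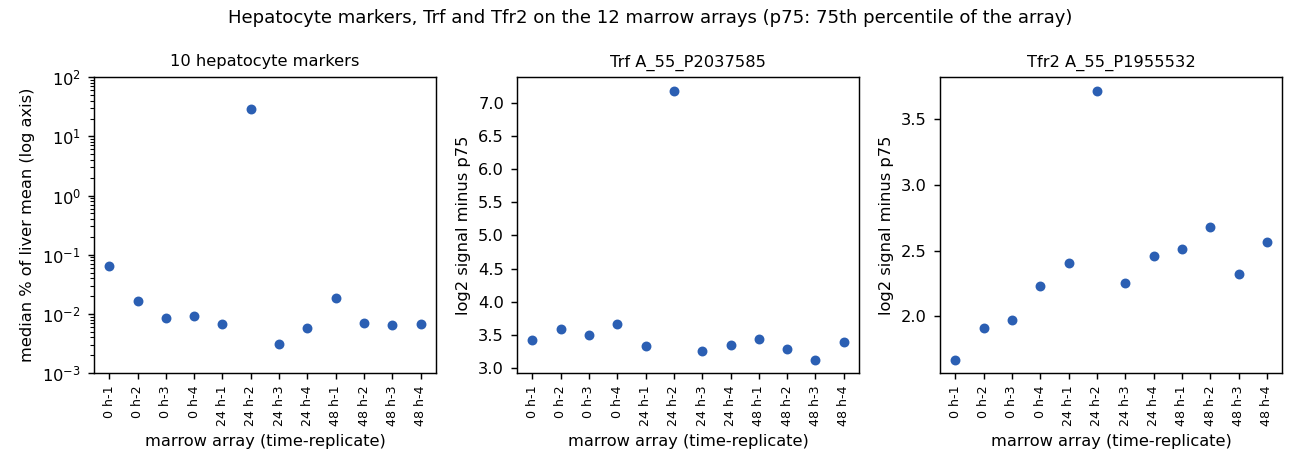
For each of the 12 marrow arrays: the median signal of 10 hepatocyte markers as a percent of the liver mean (log axis), and the log2 levels of Trf and Tfr2 probes. Marrow 24 h replicate 2 stands at 29.1% for the markers, at 7.18 for Trf and at 3.72 for Tfr2.

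Slc11a2 encodes the divalent metal transporter that moves iron out of endosomes, and into the enterocyte from the gut. Its mRNA is made with alternative 3' ends, of which the one nearer the promoter carries an iron-responsive element and the farther one does not. The array reads them apart. On mm9 chromosome 15, minus strand, A_52_P196476 (100223347-100223406) is named for transcript variant 1, and A_55_P2830119 (100219212-100219271) and A_51_P388737 (100218333-100218392), farther downstream, for variant 2. The last probe, A_52_P254298 (100240516-100240575), is described as variant 2, but the scanner files list it under the accessions of both variants, and it is called the shared probe here. The shared probe is printed whole and the 2 ends as stretches of 30 bases, since the finding is which end was measured; capitals mark the AATAAA polyadenylation signal near the variant 2 end.
Slc11a2 shared probe A_52_P254298: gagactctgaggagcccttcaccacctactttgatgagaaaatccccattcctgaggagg
Slc11a2 variant 1 end, A_52_P196476, bases 1 to 30: tgttccctattcacttgattgtcactgaaa
Slc11a2 variant 2 end, A_51_P388737, bases 31 to 60: ttgttatAATAAAgttcatgcttaatagct

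At 0 h the variant 2 probe A_51_P388737 had levels of -1.56, -1.33, -1.48 and -1.51 in liver and 0.24, 0.39, 0.30 and 0.67 in marrow. The variant 1 probe A_52_P196476 had 0.01, 0.50, 0.60 and 0.31 in liver and -1.88, -1.52, -1.71 and -1.58 in marrow. So the first was higher in every marrow and the second in every liver. The differences, marrow minus liver, were 1.87 (SE 0.12; limma adjusted p 1.49e-11) and -2.03 (SE 0.15; limma adjusted p 1.33e-10). The other variant 2 probe, A_55_P2830119, sided with the first at 1.51 (SE 0.14; limma adjusted p 2.99e-09). The shared probe gave 0.65 (SE 0.34), with all 4 marrow arrays above all 4 livers but a limma adjusted p of 0.083. One liver array at 48 h, replicate 3, stood far above its group there (-1.48, the others -3.57 to -3.29), and without it the difference was 0.65 with a limma adjusted p of 0.00703; with normexp background correction it was 0.04.

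The log2 ratio of the variant 2 end (A_51_P388737) to the variant 1 end within each array removes the scaling between arrays. It lay between 1.91 and 2.25 in marrow and between -2.07 and -1.58 in liver at 0 h, a difference of 3.90. At 24 h the tissues differed by 3.16 and at 48 h by 3.49. In each case the groups did not overlap. The ratio was chosen after its values were seen and is given as a description, with no test. Since a probe's brightness enters the ratio, its size within a tissue does not give the proportion of the 2 ends. A fixed factor of brightness cancels in the difference between tissues. That difference still depends on the background correction, and with normexp it was 3.30 at 0 h.

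After phlebotomy none of the 4 Slc11a2 probes passed the test in either tissue. In marrow the variant 1 end was at -1.04, -1.09, -1.60 and -1.28 at 24 h and at -0.96, -1.09, -1.70 and -1.15 at 48 h, that is 0.42 (SE 0.17) and 0.45 (SE 0.17) from 0 h, with limma adjusted p of 0.362 and 0.233. Replicate 3 lay within the 0 h range at both times and the other 3 mice above it. The variant 2 end had fitted changes of -0.11 and 0.23 on A_51_P388737 and of 0.05 and 0.33 on A_55_P2830119. The ratio of the ends in marrow was 1.33, 1.28, 1.75 and 1.82 at 24 h, below all 4 mice at 0 h, a difference of -0.53; at 48 h, with a difference of -0.22, the groups overlapped. Replicate 2 at 24 h is the array with liver transcripts, and liver has the lower ratio; replicate 1 had nearly as low a value. In liver the changes from 0 h ran from -0.09 to 0.28 over the 4 probes, and that of the shared probe at 48 h, 0.22, was -0.28 without liver 48 h replicate 3. From 24 to 48 h the liver levels of A_55_P2830119 did not overlap, from -0.85 to -0.47 and then from -1.23 to -0.89, a change of -0.31 (limma adjusted p 0.618); it was the only 1 of the 19 probes apart in this way, against 3.81% of all probes in either direction.

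**Figure D4:**
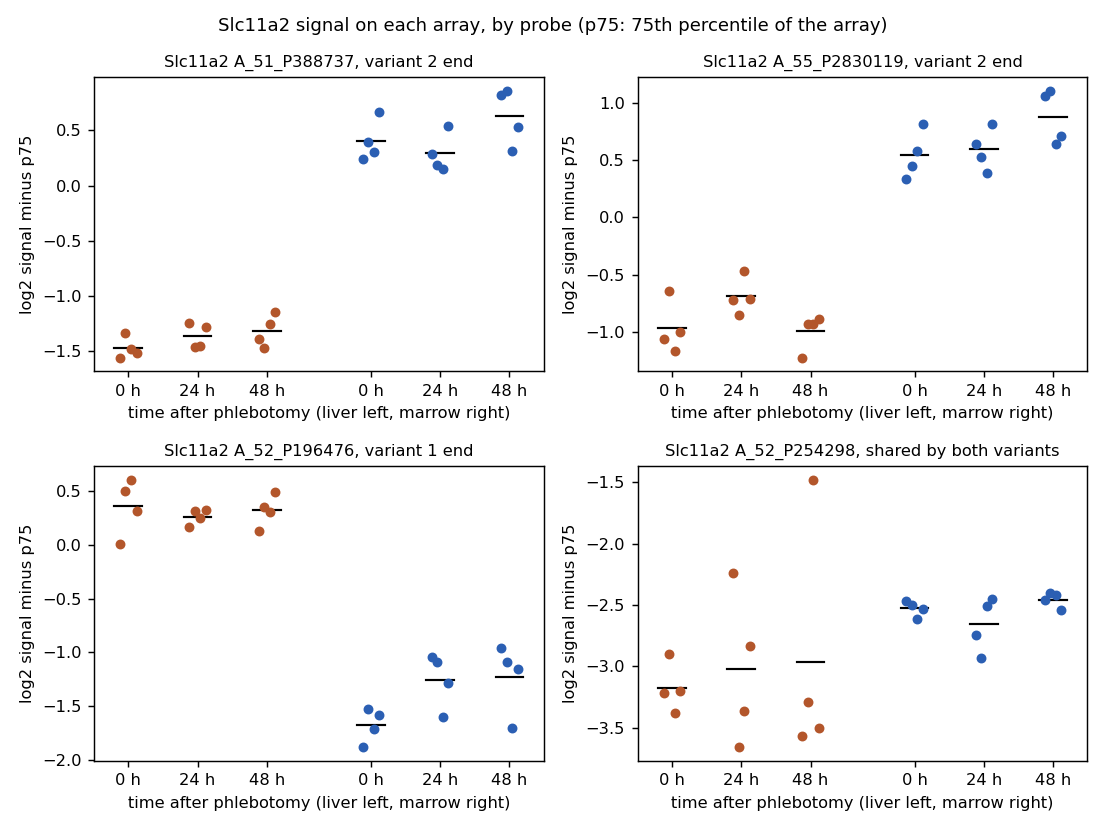
Log2 level of the 4 Slc11a2 probes on each array (points, 4 per group; bars, means), in liver (left in each panel) and bone marrow (right) at 0, 24 and 48 h. Both variant 2 probes are higher in marrow and the variant 1 probe is higher in liver at all 3 times.

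Steap3, the endosomal reductase that prepares iron for transport in erythroid cells, was read by 1 probe, A_55_P2096887 (mm9 chromosome 1, 122123244-122123303, minus strand). Its marrow levels were -0.33, 0.05, -0.13 and 0.08 at 0 h, 0.12, -0.08, -0.02 and 0.16 at 24 h and 0.40, 0.39, 0.16 and 0.21 at 48 h. Every mouse at 48 h lay above every mouse at 0 h and at 24 h, in 1 case by less than the second decimal shows, while the groups at 0 and 24 h overlapped. The 48 h change was 0.37 (SE 0.11), with a limma adjusted p of 0.129, and in liver it was -0.18 (SE 0.10; limma adjusted p 0.873). The difference between the tissues' changes, 0.55 (SE 0.15), had the smallest limma adjusted p of the 19 probes in that test, 0.0963, and did not pass. Over 20 alternatives the marrow change stayed between 0.29 and 0.42 and its adjusted p between 0.106 and 0.354.

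None of the 3 ferritin probes passed the test after phlebotomy. Fth1, the heavy chain with ferroxidase activity, was read by A_52_P49601 (mm9 chromosome 19, 10059485-10059544, plus strand), with marrow levels of 7.31, 7.32, 7.39 and 7.58 at 0 h, 7.51, 7.39, 7.39 and 7.57 at 24 h and 7.67, 7.75, 7.53 and 7.54 at 48 h. The groups overlapped at both times, and the 48 h change was 0.22 (SE 0.09; limma adjusted p 0.262). In liver it was -0.10 at each time. Ftl1, the light chain that favours mineral formation, had marrow changes from -0.01 to 0.10 over its 2 probes and both times, and liver changes from -0.21 to -0.10, none past the threshold. The mouse genome holds processed copies of ferritin genes, and whether these probes also read them was not tested. Ferritin output is controlled mainly at translation, which RNA levels do not show.
Ftl1 probe A_55_P1983959: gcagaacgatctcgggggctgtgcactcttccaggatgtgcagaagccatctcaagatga
This Ftl1 probe is printed because its 60 bases are spread over 482 bases of mm9 chromosome 7 (52714014-52714495, minus strand). A probe across a splice junction would show such a gap, but exon positions were not analysed. Whether it reads only spliced Ftl1 RNA was not tested. Its marrow levels at 0 h were 5.81, 5.71, 5.80 and 5.78, and its liver levels 7.16, 7.26, 7.24 and 7.22. The other Ftl1 probe, A_55_P2851873 (52713318-52713377), is contiguous on the genome.

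Slc40a1 encodes ferroportin, the only known exporter of iron from cells, which macrophages use to return iron from old red cells and which hepcidin causes to be degraded. Probe A_51_P389988 (mm9 chromosome 1, 45965255-45965314, minus strand) had marrow levels of 3.37, 3.67, 3.61 and 3.77 at 0 h, 3.15, 3.19, 3.41 and 3.30 at 24 h and 3.28, 3.52, 3.09 and 3.61 at 48 h. At 24 h only replicate 3 reached into the 0 h range, and at 48 h replicates 2 and 4 lay within it. The fitted change was -0.34 (SE 0.13) at 24 h and -0.23 at 48 h (limma adjusted p 0.319 and 0.421). The second probe, A_55_P2620111 (45980637-45980696), listed for a separate transcript, had 0.07 and 0.17. In liver the 2 probes gave 0.07 to 0.27, none past the threshold.

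Because macrophages use ferroportin, their markers in marrow are given beside Slc40a1. At 24 h, 14 of 14 macrophage probes were fitted lower, with a median of -0.37 and 0 called (limma; 10 at an unadjusted p under 0.05), and 9 of 14 did not overlap with 0 h, against 7.96% of all probes in either direction. The summed macrophage level was 81.2 to 93.1 times the 75th percentile at 0 h, 63.2 to 75.4 at 24 h and 68.2 to 76.6 at 48 h. Without marrow 24 h replicate 2 all 14 were again fitted lower, with a median of -0.31. B-cell probes were also fitted lower, 17 of 17 at each time, with medians of -0.58 and -0.39 and 0 called (limma; 9 and 2 at an unadjusted p under 0.05). The part of these cells in the Slc40a1 values was not tested.

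Ireb2, the iron regulatory protein that is itself degraded when iron is plentiful, was read by A_51_P196889 (mm9 chromosome 9, 54759984-54760043, plus strand). In marrow its levels ran from 1.33 to 1.63 at 0 h, 1.55 to 1.63 at 24 h and 1.47 to 1.57 at 48 h, and neither change passed the test. In liver they were 2.74, 2.47, 2.62 and 2.55 at 0 h and 2.06, 2.24, 2.51 and 2.53 at 24 h. Of those later mice, 2 lay below the 0 h range, and the others within it. The fitted change of -0.26 (SE 0.11) had a limma adjusted p of 0.452, and at 48 h it was -0.11.

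For the liver as a whole the background is as low as the members' count: 0 of 28797 probes were called at 24 h, 48 h or between them, 0% in each case (limma; 3014, 1713 and 2215 at an unadjusted p under 0.05). Of the 19 iron probes, 0 were called in each, with 2, 0 and 2 at an unadjusted p under 0.05. Their median change was 0.06 at 24 h and -0.03 at 48 h, against -0.01 over all probes at each time. No liver group of the 19 was separate from 0 h, against 5.36% of all probes at 24 h and 4.02% at 48 h.

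The tissues themselves differed far more than the times. Before phlebotomy 15 of 19 iron probes differed between marrow and liver, 4 higher and 11 lower in marrow, against 79.1% of 34425 probes measured in either tissue (40.6% higher and 38.5% lower), so that the share is that of the array as a whole. Tfrc was higher in marrow by 4.26 (SE 0.28) and 3.88 (SE 0.32). The differences, marrow minus liver, were -6.27 and -4.98 for Trf and -4.54 and -4.47 for Tfr2. Receptor 1 thus stood on the marrow side, and the liver's carrier and iron sensor on the other. Hfe differed by -2.29 and -2.13, Ireb2 by -1.09, Ftl1 by -1.44 and -1.16 and Fth1 by -0.68. Slc40a1 (0.11 and 0.04) and Steap3 (-0.10) did not pass the test between tissues.

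**Figure D5:**
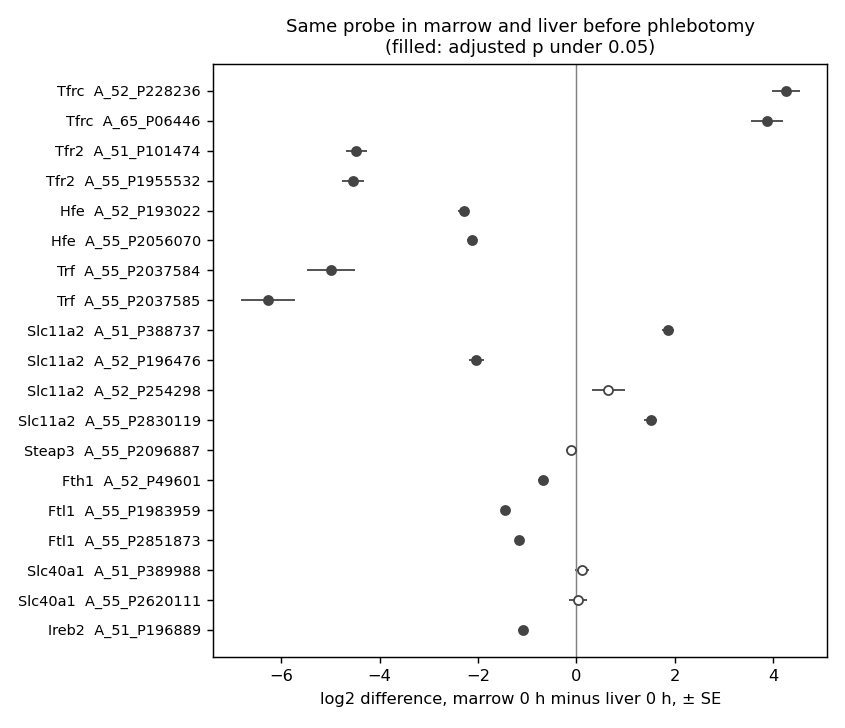
Difference in log2 level of the same probe between marrow and liver at 0 h, with its SE, for the 19 iron gene probes; filled points have an adjusted p under 0.05. Tfrc and the variant 2 probes of Slc11a2 lie to the right of 0, and Trf, Tfr2, Hfe and the variant 1 probe of Slc11a2 to the left.

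Small differences between tissues depend on the scaling. The median over all probes was 0.04 in the comparison above, 0.11 with quantile scaling and -0.25 with normexp background correction, which also turned the split of called probes from 13993 higher and 13251 lower to 10934 and 17139. With quantile scaling Fth1 differed by -0.09 and Ftl1 A_55_P2851873 by -0.07, neither past the threshold (limma adjusted p 0.358 and 0.233), and Slc40a1 A_51_P389988 by 0.50, past it (limma adjusted p 0.00447). The directions of Tfrc, Tfr2, Hfe, Trf, Ireb2 and the 3 end probes of Slc11a2 were the same under quantile scaling and normexp background correction.

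Of 25 other genes of iron handling, with 49 probes, 42 probes were measured in liver and 37 in marrow. In liver 0 were called (limma; 9 at 24 h and 4 at 48 h at an unadjusted p under 0.05), and the largest fitted changes were those of Lcn2, the siderophore-binding lipocalin of the acute phase, at 2.67 (SE 0.87; limma adjusted p 0.374) at 24 h and 0.59 at 48 h. The 48 h value of Lcn2 was -0.03 without liver 0 h replicate 2 and 1.47 without liver 0 h replicate 1. In marrow 1 of 37 was called at each time, Slc39a8 (probe A_52_P485939), which encodes a transporter of zinc, manganese and iron. It rose by 0.59 (SE 0.09; limma adjusted p 0.0144) at 24 h and by 0.63 (SE 0.09; limma adjusted p 0.00938) at 48 h. Its other 2 probes had fitted changes of 0.47 and 0.55 at 24 h and 0.55 each at 48 h, and did not pass. The largest fitted changes of the list were those of Scara5 at 24 h (-0.64) and Cybrd1 at 48 h (-1.37), neither past the threshold (limma adjusted p 0.241 and 0.299). These sizes depend on the settings: with normexp background correction Scara5 gave -0.32 and Cybrd1 -0.40, and without marrow 48 h replicate 2 Cybrd1 gave -0.73.

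In liver the same Slc39a8 probe had -0.10 and -0.07. The difference between the tissues' changes, 0.68 (SE 0.12) at 24 h and 0.70 (SE 0.12) at 48 h, passed the test (limma adjusted p 0.0187 and 0.0118). The 24 h call in marrow was lost without a filter on dim probes (limma adjusted p 0.0624) and without marrow 0 h replicate 2 (0.0544), and both calls of the difference without that filter (0.0761 and 0.0673). Of the 19 probes of the 10 genes and the 35 probes of the other iron genes in that test, it was the only one called.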

How the data were processed

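Per the labels, total RNA of each sample was labelled with Cy3 and hybridised to 1 one-colour Agilent array; groups and numbers come from the sample titles. The deposited scanner files hold background-subtracted spot intensity on a linear scale, made with Agilent Feature Extraction 10.10.1.1, and positions on mm9, per the file headers. The authors' deposited table of log2 values, whose scaling is not given in the sources used here, ranked probes as the scanner's median signal does, and served as an alternative within each tissue.

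Here each array's intensity was converted to log2 and its 75th percentile was subtracted. Control spots and spots with outlier flags were left out, 0 spots were saturated, and spots of a probe were averaged. Within a tissue, only probes that the scanner marked well above background on every array of 1 group or more were tested. Changes were tested per probe with limma 3.58.1 in R 4.3.3 (lmFit and eBayes, two-sided, Benjamini-Hochberg over all kept probes, threshold 0.05), with the 12 arrays of a tissue in 1 fit and all 24 for comparisons between tissues, beside exact two-sided permutation tests for single probes. Precision is limited by the number of arrays, and the fit was tested on simulated data. Promoter windows and their starts are RefSeq's on GRCm38.p6, a later build than that of the files, and were matched by gene symbol for 7 of the 10 genes. Whether a probe lies in an exon, intron or untranslated region was not analysed here.

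The 10 genes, the 25 other iron genes and the lists of cell markers were chosen with earlier results of these data known, and some genes of the erythroid list are not reported here. The 10 genes are named throughout; other iron genes are named where a probe passed or had the list's largest fitted change in a comparison, and the 5 genes most like Tfrc by Pearson correlation in each tissue, leaving out names that are only an accession or a predicted gene. As alternatives, the scaling and background correction were changed, dim probes were not filtered, the slide or the replicate number was a block, genes had 1 probe each, fewer arrays or the authors' values were fitted, and each array was left out in turn. The labels do not say whether liver and marrow samples of a number share a mouse, so the main tests did not take the numbers as pairs. Between the tissues, the alternative with a replicate block did. The deviations of liver and marrow samples of the same time and number correlated between 0.03 and 0.207. Such samples also shared a slide, so this does not settle the question.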

Additional observations from a re-analysis of the deposited data

Results flagged for a closer look

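In groups of 4, a single array far from the other 3 was found for 6 of 114 combinations of probe and group, where chance gives about 1 in 20, or 5.7. Of these, 3 are on marrow 24 h replicate 2: Trf A_55_P2037584 at 7.92 (the other mice 4.42 to 4.51), Trf A_55_P2037585 at 7.18 (3.26 to 3.35) and Tfr2 A_55_P1955532 at 3.72 (2.25 to 2.46). The summed level of 10 hepatocyte markers on that array was 1630 times its 75th percentile, against 1.78 to 5.56 on the other marrow arrays.

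The others are in liver. Slc11a2 A_52_P254298 stood at -1.48 on liver 48 h replicate 3, against -3.57 to -3.29. Slc11a2 A_55_P2830119 stood at -1.23 on liver 48 h replicate 1, against -0.93 to -0.89. Slc40a1 A_51_P389988 stood at 3.13 on liver 0 h replicate 2, against 3.61 to 3.64.

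Slc39a8 A_52_P485939 is given here because its change differed between the tissues in the interaction test, by 0.68 at 24 h (limma adjusted p 0.0187) and 0.70 at 48 h (limma adjusted p 0.0118), higher in marrow in both.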

How the results depend on the processing

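No change of sign was found for a called value. Over all alternatives of the single probes and the ratio of Slc11a2 ends, 4244 values kept their call or stayed within the spread between replicates. Another 19 lost a call, 4 gained one and 17 moved by more than that spread. Where an array stands far off, the spread is wide. The Trf change in marrow at 24 h on A_55_P2037585, from -0.23 to 1.08, counted as within it in 18 of 18 alternatives. The tally therefore does not show that uncalled values were stable. Without the filter on dim probes, marrow counts fell to 88 probes at 24 h and 110 at 48 h, with 0 and 1 of the iron probes, and the counts of changes differing between tissues to 19 and 24; that alternative tests 56605 probes. With the slide as a block marrow at 48 h had 143, with 1 iron probe. With only the 8 arrays compared, marrow at 24 h had 163, and 48 against 24 h had 0. With 1 probe per gene, 1 iron gene was called in marrow at 48 h and 8 differed between the tissues at 0 h. With the replicate block, marrow had 160 and 153, and the iron probes' calls were unchanged in number. Between the tissues the block was time and number together, as if liver and marrow samples of a number shared a mouse. The differences between tissues then had 256 and 286, against 119 and 155 without that block. In their deviations from the group means, same-numbered samples of a tissue correlated between -0.251 and 0.164. Liver with marrow of the same time and number correlated between 0.03 and 0.207, positive in each case. Such arrays always lay on the same slide, so a shared slide and a shared mouse cannot be told apart. These values do not settle whether both tissues came from the same mice. Leaving out 1 array gave 0 to 1 probes in liver at 24 h, 0 to 14 at 48 h and 0 to 1 between them. In marrow it gave 95 to 291 at 24 h (iron probes 0 to 1) and 129 to 547 at 48 h (1 to 3). For the differences between tissues it gave 20 to 230 and 36 to 188, and for marrow against liver at 0 h 26504 to 27407 (15 to 16). Under normexp background correction the ratio of Slc11a2 ends differed between the tissues by 3.30. The causes of these shifts were not tested.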
